A study of Gallus gallus with 16 samples.

Results

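Pituitary glands of chicken embryos were profiled on embryonic days 10 (E10), 12 (E12), 14 (E14) and 17 (E17), and 97 of the 7200 spotted cDNA probes made up the group described here, those whose signal fell between the youngest and the oldest glands with the largest drop between E12 and E14. A probe was a member where its mean fell by at least 0.45 from E10 to E17 and the drop from E12 to E14 exceeded those from E10 to E12 and from E14 to E17, among the 7103 probes with 3 or more values at every age. The same measured values chose the members, so their time course is a description and is not tested. Each age had 4 replicate arrays, and each replicate was a pool of whole glands, 16 per pool for E10, 8 for E12, 4 for E14 and 2 for E17. RNA of each pool was amplified, labelled with Cy3 and hybridised beside a Cy5-labelled reference made from all 16 samples. No group carried a treatment or a genetic change, and the sources used here give neither strain nor sex.

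The anterior pituitary holds several endocrine cell types that arise from common progenitors: thyrotrophs make thyrotropin, somatotrophs make growth hormone, lactotrophs make prolactin, and corticotrophs and gonadotrophs make the hormones that act on the adrenal and the gonads. In the chick embryo, as in mammals, these cell types appear in a set order, and progenitors continue to divide while hormone-producing cells accumulate. The study's title concerns the period in which thyrotrophs, somatotrophs and lactotrophs differentiate. None of the 97 members had a gene name here: in the platform annotation only 54 of the 7200 rows carry a name, that of STUB1, which encodes a ubiquitin ligase that works with chaperones, and no member was among them. Members are therefore given by their row number, their roles are unknown here, and the tissue could not be checked against hormone or progenitor markers. In a whole gland, fewer cells of a type and less RNA per cell cannot be told apart.

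Values are the deposited log ratios, read as log2 of sample over pool as the titles order them. The log base and direction are not stated with the values. Every array had been scaled to the same spread, with SDs of 0.261, so differences are in scaled log2 units and are not fold changes. Across all probes, 2 pairs of arrays correlated below -0.3, the lowest at r = -0.369 (E10 replicate 3 with E17 replicate 2). Since the reference holds RNA of every age, opposite values of young and old glands are possible and the direction was kept; with the sign turned, every fall given here would be a rise. Between 7023 and 7194 spots held a value on each array. Replicates 3 and 4 of both E12 and E14 had 39 to 45 blanks among the first 45 rows, the other arrays 0 or 1, so these 4 arrays may form a batch. E14 replicate 1 also stood apart: across all probes it correlated at 0.597 with E12 replicate 1, while the other same-numbered E12 and E14 pairs reached 0.154 to 0.261.

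The members went from above the pool to below it. The median over the 97 age means was 0.22 at E10 and 0.08 at E12, then -0.23 at E14 and finally -0.36 at E17. At E10 the means of 95 members were above 0 and at E12 those of 74, while at E14 and at E17 none was. The median drop was 0.16 from E10 to E12, 0.30 from E12 to E14 and 0.15 from E14 to E17, against 0.01, 0.02 and 0.00 over all probes tested. Without E14 replicate 2 the median drop from E14 to E17 was 0.087. The total fall had a median of 0.57 and ran from 0.45 to 1.31; it was under 0.5 in 23 members and at least 1 in 2.

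**Figure D1:**
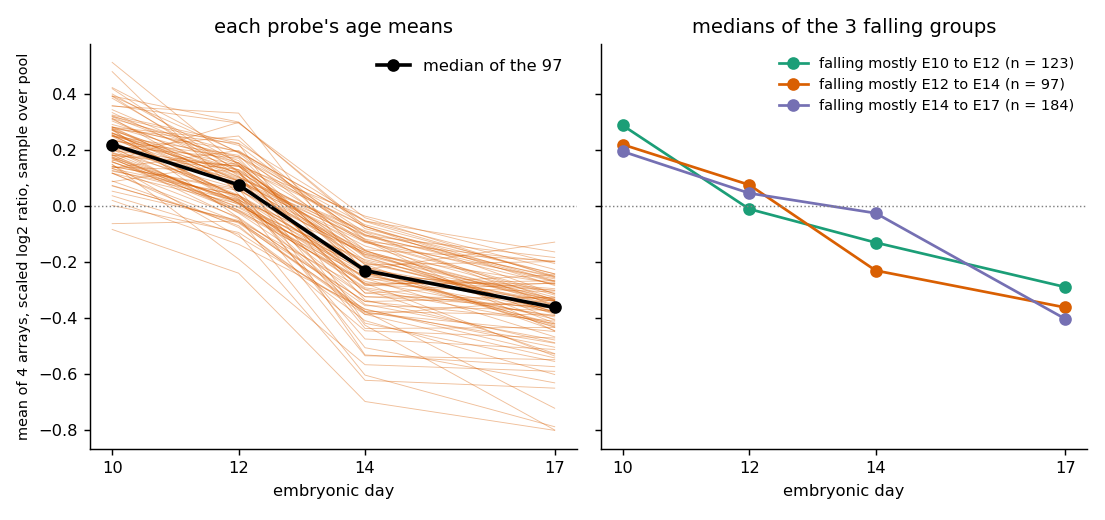
Mean of 4 arrays (scaled log2 ratio of sample over pool) against embryonic day, for each of the 97 members (thin lines, left, with their median in black) and as the median of the members and of the probes that fell mostly in the first or the last interval (right). The members' median drops most steeply between day 12 and day 14, from 0.08 to -0.23, which the rule required of each of them.

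Few members were steps with flat ends. The E12 to E14 drop made up a median of 51.5% of the fall, from 35.1% to 91.9%, and more than 50% of it in 54 members. The means of 84 members fell at each of the 3 steps, whereas 5 were no lower at E12 than at E10 and 8 were no lower at E17 than at E14. Outer steps were both under 0.1 in 3 members and both 0.1 or more in 45. In 28 members the first step was 0.1 or more and the last step under 0.1. In another 21 it was the first step that was under 0.1 and the last that was 0.1 or more. The standard error of the first step ran from 0.076 in probe 1449 to 0.300 in probe 7088. Sorting at 0.1 thus describes the means and does not show when a member's decline began or ended. The middle step was at least 2 times either other step in 28 members. The last interval is 3 days long and the others 2, so the rule also makes the middle drop larger per day than the last.

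The steepest members showed how much of the drop rested on single arrays. Probe 2387 had the largest difference between E12 and E14, with values of 0.19, 0.36, 0.14 and -0.13 at E10 and -0.27, 0.45, 0.01 and 0.31 at E12, in order of replicate. It then stood at -0.93, -0.12, -0.70 and -0.38 at E14 and -0.68, -0.28, -0.60 and -0.73 at E17. The ages before and after the step overlapped, since E12 replicate 1 lay below E14 replicate 2. Its mean moved from 0.12 ± 0.32 at E12 to -0.53 ± 0.36 at E14 (SD, n = 4), and 91.9% of its fall from E10 to E17 lay in that interval, the highest share among members with a value on all arrays.

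Probe 1175 stood at 0.24, 0.52, 0.36 and -0.02 at E10 and at 0.09, 0.45, -0.03 and 0.39 at E12. At E14 its replicates split, with -0.65 and -1.05 on replicates 1 and 3 and 0.05 and -0.02 on replicates 2 and 4, and at E17 it stood at -0.53, -0.34, -0.59 and -0.76. Replicates 2 and 4 at E14 thus lay within the range of E12, and replicates 1 and 3 lay within or below that of E17. Its E14 mean was -0.42 ± 0.53 (SD, n = 4).

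Probe 4989 had E12 values of -0.01, 0.20, 0.20 and 0.94 and E14 values of -0.38, -0.24, -0.33 and -0.02. Its E12 and E14 arrays did not overlap, by a gap of only 0.01, and replicate 4 alone raised its E12 mean to 0.33 ± 0.42 (SD, n = 4). It stood between 0.19 and 0.51 at E10 and between -0.65 and -0.13 at E17.

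Probe 585 had the largest fall from E10 to E17, 1.31, and lost some of its signal at each step. It stood at 0.53, 0.38, 0.51 and 0.64 at E10, -0.06, 0.02, 0.35 and 0.28 at E12, -0.86, -0.31, -0.21 and -0.32 at E14 and -0.79, -0.87, -0.65 and -0.89 at E17. No E12 array overlapped with an E10 or an E14 array. At E14, replicate 1 was already as low as the E17 arrays and the other 3 were not.

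Among the members plotted below, probe 2875 was the most regular. It went from 0.63, 0.50, 0.35 and 0.44 at E10 to -0.03, 0.01, 0.12 and 0.07 at E12, and then to -0.33, -0.47, -0.57 and -0.52 at E14. At E17 it stood at -0.39, -0.65, -0.43 and -0.57, a range that held 3 of its 4 E14 values. Its 4 arrays at E12 lay below all of E10 and above all of E14, so it fell in both early steps, by 0.44 and 0.52, and its last step of 0.04 was within the spread of the arrays. Probe 2240, with a fall of 1.06, was less regular: its E14 values were -1.08, -0.22, -0.69 and -0.42, against -0.26, -0.11, 0.14 and 0.06 at E12, where replicate 1 lay below E14 replicate 2.

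**Figure D2:**
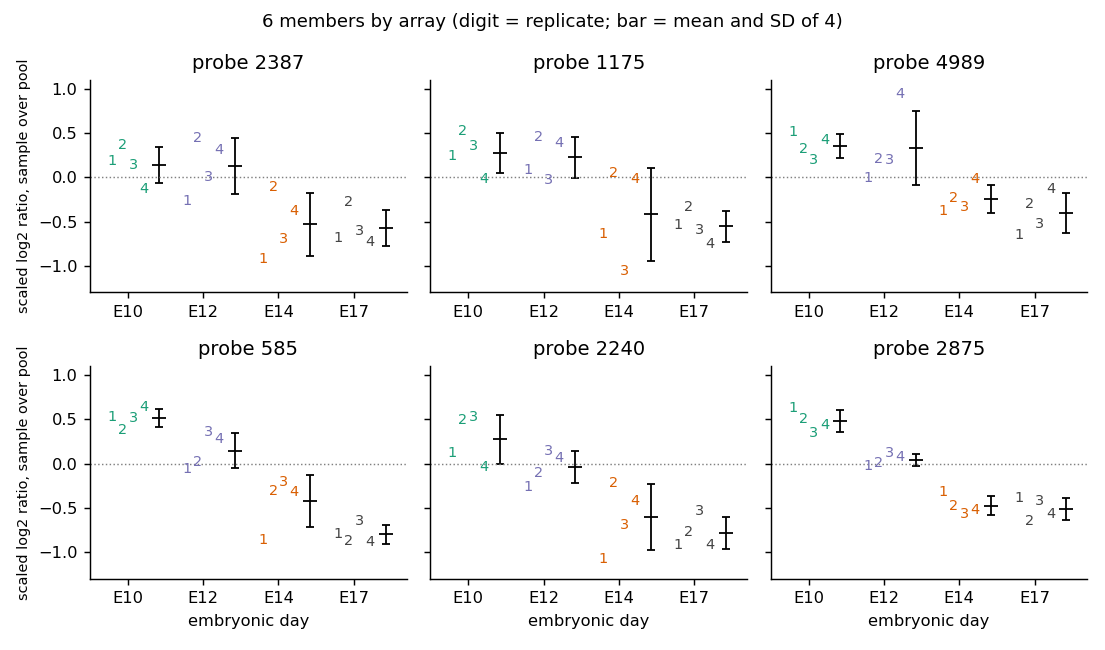
Values of 6 members on each array (scaled log2 ratio, digits are replicate numbers), with the mean and SD of the 4 arrays of each age as a bar. In probes 2387, 1175 and 2240, replicates 1 and 3 at E14 lie below replicates 2 and 4, while the 4 arrays of probe 2875 span 0.246 at E14.

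Replicate spread differed among members. The mean SD within ages was smallest in probe 1449, at 0.068, which stood at 0.26 ± 0.08, 0.10 ± 0.07, -0.18 ± 0.05 and -0.34 ± 0.07 over the 4 ages (SD, n = 4), and in probe 1103, at 0.075. For both probes the drop was graded, with 45.3% and 39.6% of the fall between E12 and E14. It was largest in probe 7088, at 0.394, whose E17 arrays ran from -1.33 to 0.24, and in probe 6830, at 0.358, whose E10 arrays ran from -0.44 to 0.99. Probe 5880, second in share among members with a value on all 16 arrays, lost 85.3% of its fall in the middle step, but its values at E10 already covered -0.36 to 0.50. At the other end, probes 184 and 1206 lost 35.1% and 35.5% of their fall in that step and 3 nearly equal drops made up the whole, 0.17, 0.19 and 0.18 for probe 184 and 0.19, 0.22 and 0.21 for probe 1206. Near the 0.45 threshold, probes 4467 and 4983 fell by 0.451 and 0.454 and were members, while probes 1838 and 4711 fell by 0.449 and 0.448 and were not. The E14 values of probe 4467 rested on 3 arrays, because replicate 4 was blank.

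The members were also read as a group on single arrays. Their medians were 0.25, 0.24, 0.22 and 0.22 on the E10 arrays and -0.05, 0.08, 0.14 and 0.17 on those of E12, in order of replicate. They were -0.33, -0.12, -0.33 and -0.18 at E14 and -0.36, -0.34, -0.36 and -0.43 at E17. Array medians did not overlap between any neighbouring ages, though the gap between E14 and E17 was 0.0027. These arrays also chose the members, so the separation is in part set by the rule. The SD of the array medians was lower at E10 (0.014) and E17 (0.038) than at E12 (0.099) and E14 (0.109), with n = 4 at each age. On replicates 1 and 3 at E14 the members were thus almost as low as at E17, and on replicates 2 and 4 they stood between the E12 and the E17 levels.

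**Figure D3:**
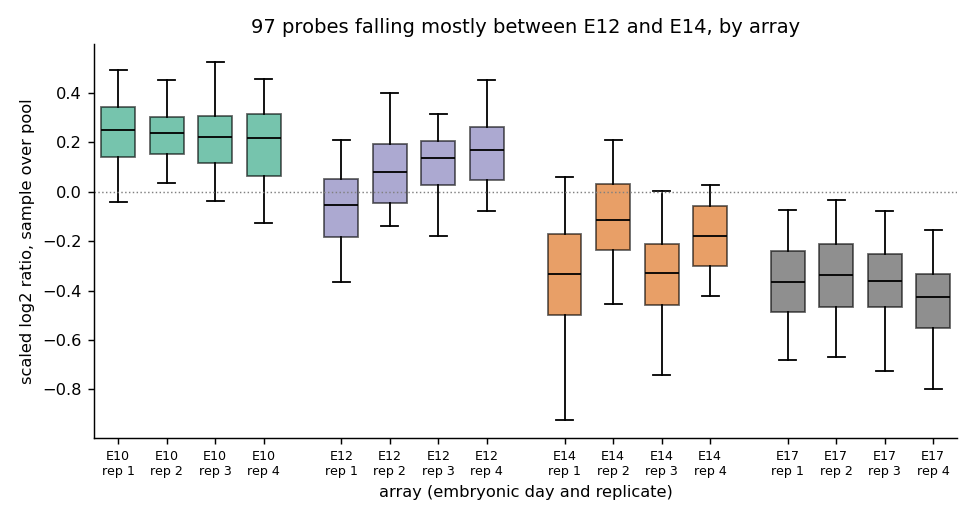
Values of the 97 members on each of the 16 arrays (scaled log2 ratio; boxes are quartiles with the median, whiskers the 5th to 95th percentile). The E10 and E17 arrays line up within their age, while E12 replicate 1 sits below the other E12 arrays and E14 replicates 1 and 3 sit below replicates 2 and 4.

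This pattern recurred from member to member. E12 replicate 1 was the lowest E12 array in 64 of 97 members (66.0%), against 28.2% of all probes with 4 values. That share was 60.9% in the probes that fell mostly from E14 to E17 and 47.9% in those that fell mostly from E10 to E12. It was 23.5% in those that rose mostly from E12 to E14. At E14, either replicate 1 or replicate 3 was the lowest in 78 of 95 members (82.1%), against 51.9% of all probes, and either replicate 2 or replicate 4 was the highest in 71 (74.7%), against 49.0% of all probes and 63.6% to 68.2% in the other falling groups and the group that rose mostly from E12 to E14. The split was not particular to the members: among probes that fell mostly from E10 to E12 the lowest E14 array was replicate 1 or 3 in 76.9%. Among those that fell mostly from E14 to E17 it was so in 78.0%. Probes that rose mostly from E12 to E14 differed. Their share was 82.9%, but replicate 1 was the lowest in 77.5% and replicate 3 in only 5.43%. In the members, replicate 1 was the lowest in 43.2% and replicate 3 in 38.9%. Deviations of the arrays from their age mean were in part shared among members. The rule used the means and not these deviations, but each array enters its age mean, so they are not independent of the choice. The median correlation between pairs of members over the 16 deviations was 0.208 (92 members with all values), with quartiles of -0.051 and 0.456. Between pairs of all probes the median was -0.001, with quartiles of -0.252 and 0.251. It was 0.162 and 0.150 in the other falling groups and 0.291 in the rising group. These correlations are a description; the probes share arrays, RNA pools and dye labelling, and how much each contributes was not tested.

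Single members passed the test for the overall fall far more often than for any of its steps. In limma's fit of all 16 arrays, 90 of the 97 members were lower at E17 than at E10 at an adjusted p under 0.05, where 10.2% of all tested probes were, and 80 differed among ages by the F test, where 12.7% did. Between E12 and E14 only 5 members passed, probes 346, 395, 585, 2875 and 5082, where 0.0985% of all probes were lower (69 members and 4.41% of all probes at limma's unadjusted p under 0.05); probes 346, 395 and 5082 are named here after their values were seen. With the replicate number as a block the count was 8, where 0.155% of all probes passed. Without E14 replicate 1 the count was 6 (0.239% of all probes). Without E12 replicate 3, E12 replicate 4 or E14 replicate 3 it was 2, 1 and 2 (0.0563%, 0.0141% and 0.0422% of all probes). Without E10 replicates 1, 2 or 3, E14 replicate 4 or E17 replicate 2 it was 3 (0.0563% of all probes without E10 replicate 1 and 0.0704% in the other 4 fits). Probe 2875 alone passed between E10 and E12 (0.0985% of all probes were lower there). In 12 of the 16 fits that left out 1 array, no member passed there (0% to 0.0563% of all probes). None passed between E14 and E17, where 0.718% of all probes were lower; limma's unadjusted p was under 0.05 for 12 members (6.84% of all probes), and without E14 replicate 1 the adjusted count was 1, where 1.00% of all probes passed. Because the rule used these same differences, the counts say nothing further about the members.

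Separation of the arrays gave a similar order, but these arrays chose the members, so the counts are a description. All 4 E10 arrays lay above all 4 E17 arrays in 86 members (15.7% of all probes), and all E12 arrays above all E14 arrays in 30 (1.89% of all probes). For E10 above E12 the count was 15 (3.82% of all probes), and for E14 above E17 it was 6 (3.58% of all probes). E10 lay above E17 in 88.7% of members. In the probes that fell mostly from E10 to E12 and from E14 to E17 it did so in 88.6% and 92.9%. Over the interval of their largest drop, the arrays separated in 30.9% of members and in 42.3% and 39.7% of those 2 groups.

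The lead of the middle step over the others was small beside its error. Its drop exceeded that of the first step by a median of 0.15 and that of the last by 0.16, with a median standard error of 0.21 for either difference in a single probe. This standard error rests on a variance pooled over all ages, whose spread differed, and the effect of the pooling was not tested. The lead over the first step was above its standard error in 29 members and that over the last in 36, and both were in 19. In limma's fit 0 members passed an adjusted p under 0.05 for a larger middle than first step, where 0% of all probes did, and 3 had an unadjusted p under 0.05 (2.38% of all probes). For a larger middle than last step 0 members passed as well, where 0.211% of all probes did, and 6 had an unadjusted p under 0.05 (2.38% of all probes). Probe 2387 had both leads above 2 standard errors, and no other member did.

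**Figure D4:**
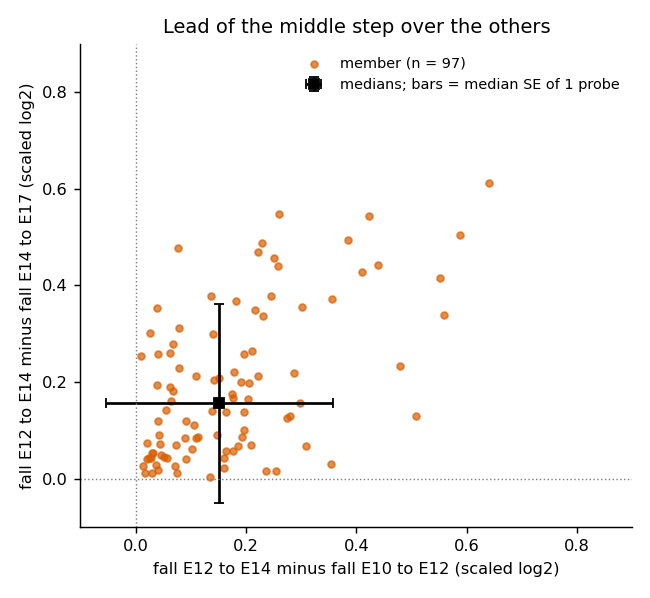
Drop from E12 to E14 minus the drop from E10 to E12 (x axis) and minus the drop from E14 to E17 (y axis), both in scaled log2 units, for each of the 97 members; the square and bars give the medians and the median standard error of a single probe. Most members lie within 1 standard error (0.21) of no lead on at least 1 axis.

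Membership changed accordingly when arrays were left out. With 1 of the 16 arrays left out the rule chose 77 to 141 probes, of which 63 to 95 were among the 97, and 25 members were chosen in each of the 16 runs. Over the 16 runs a member was lost 253 times: 101 times because the last step became the largest, 87 times because the first did, 50 times because the total fall went under 0.45 and 15 times because fewer than 3 values were left at an age. The runs with the most losses were those without E14 replicate 1, which left 63 of the 97, and without E14 replicate 3, which left 67; in these runs 29 and 24 members then had their largest drop in the last interval. Without E12 replicate 4, 69 stayed, and 23 then had their largest drop in the first interval. Without E12 replicate 1 or E14 replicate 2 the rule chose 141 probes. The 25 members chosen in each run had a median middle step of 0.40 and lost a median of 63.9% of their fall in it, and they include probes 2387, 1175, 4989, 2240, 2875, 1449 and 1103. To stay in each run the middle step had to lead whichever array was left out. This second choice on the same arrays favours large middle steps, so both medians are in part set by it.

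The drop was also read within each set of arrays that differed in the blank rows; these are the arrays that chose the members, so its direction is largely set by the rule. Within the 4 blank-block arrays of E12 and E14 the median difference over the members was 0.40 and all 97 were higher at E12. Within the other 4 arrays of these ages it was 0.24 and 93 were higher at E12. Over all probes 54.1% and 54.7% were higher at E12 in the 2 sets, over the probes that fell mostly from E10 to E12 86.2% and 71.5%, and over those that fell mostly from E14 to E17 83.7% and 59.2%. In limma, with the batch as a term, 4 members passed between E12 and E14 (0.0845% of all probes). Without the 4 blank-block arrays 0 passed, where 0% of all probes did (24 members and 2.01% of all probes at limma's unadjusted p under 0.05). That left 2 arrays at E12 and 2 at E14, and the rule then chose 54 probes, 39 of them among the 97. E10 and E17 held no blank-block array, so the first and last steps compare unlike sets of arrays. Without these 4 arrays the members' median steps were 0.21, 0.24 and 0.15, so the middle step led the first by little.

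Arrays that took no part in choosing the probes gave a separate reading. The rule was applied to the 12 arrays without replicate 1, 2, 3 or 4, and the chosen probes were read on the 4 arrays left out. It chose 112, 133, 66 and 112 probes, of which 65, 78, 51 and 69 were also members. The other chosen probes were not members, so these readings are of the rule's choice and not of the members alone. The chosen probes had a median fall from E10 to E17 of 0.59, 0.57, 0.54 and 0.56 on the choosing arrays. On the arrays left out the median fall was 0.55, 0.52, 0.52 and 0.61, and E10 was above E17 in 96.4%, 100%, 98.5% and 95.5% of the chosen probes, against 51.8% to 55.9% of all probes. The overall decrease of the chosen probes thus reappeared at nearly its full size.

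The drop from E12 to E14 was smaller on the arrays left out for replicates 1, 2 and 4 and larger for replicate 3. Its median went from 0.32, 0.32, 0.30 and 0.32 on the choosing arrays to 0.15, 0.10, 0.42 and 0.22 on replicates 1, 2, 3 and 4. It was positive in 76.6%, 65.6%, 93.9% and 80.9% of the chosen probes, where 49.7% to 54.0% of all probes were higher at E12. It was the largest of the 3 steps in 25.2%, 22.9%, 77.3% and 33.6% of them, against 31.6%, 36.9%, 39.8% and 34.7% of all probes. On replicates 1, 2 and 4 this share was below that of all probes and on replicate 3 it was above. The other falling choices, given below, differed from all probes in the same directions, and this was not tested. In the probes chosen for the E12 to E14 drop, the first step was larger on replicate 1, with a median of 0.32. On replicates 2 and 4 the last step was larger, with medians of 0.27 and 0.29.

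Probes chosen in the same way for another interval gave the comparison. On replicates 1 to 4 left out, the E12 to E14 drop of probes chosen as falling mostly from E10 to E12 had medians of 0.10, 0.03, 0.26 and 0.14, and that of probes chosen as falling mostly from E14 to E17 had 0.09, 0.06, 0.24 and 0.18. Probes chosen for the E12 to E14 drop had the higher median on each of the 4 replicates, by 0.04 to 0.18. The drop was positive in 67.9%, 55.3%, 84.1% and 73.2% of the probes chosen for the first interval. Among those chosen for the last interval it was positive in 65.5%, 59.0%, 85.9% and 73.6%. The ranges over replicates overlapped, the 4 choices shared most of their arrays, and the difference was not tested. Same-numbered E12 and E14 arrays also shared deviations across all probes (r = 0.437, 0.224, 0.194 and 0.148), which cancel in part in these differences.

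**Figure D5:**
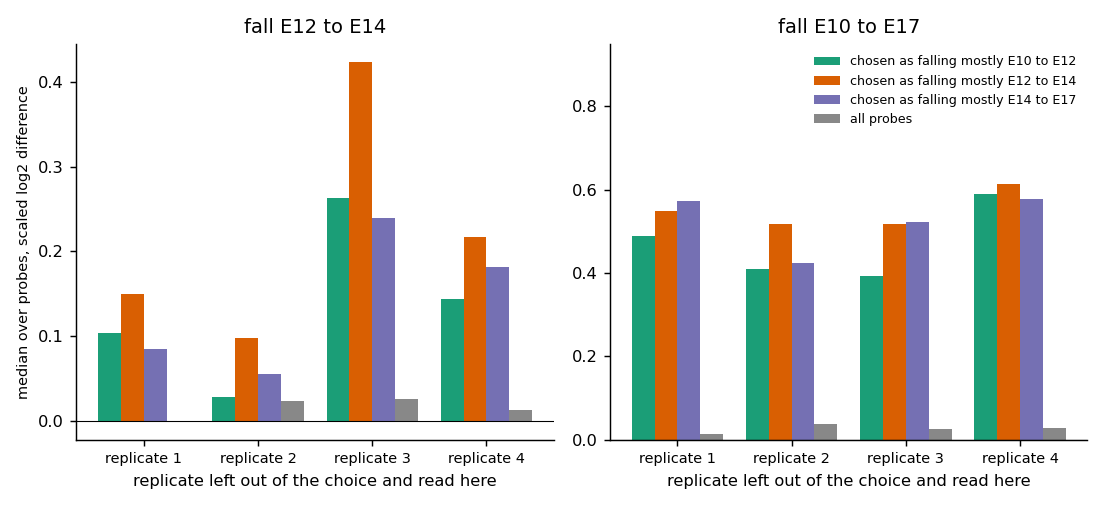
Median drop from E12 to E14 (left) and from E10 to E17 (right), in scaled log2 units, on the replicate that took no part in choosing the probes, for probes chosen by their largest drop and for all probes. Orange bars, for probes chosen on the E12 to E14 drop, are the highest of each set on the left but range from 0.10 to 0.42, while on the right the falling groups all lie near 0.4 to 0.6.

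The share of members in the first 3600 rows of the table was like that of falling probes in general. Of the 97, 65 (67.0%) lay there, against 49.4% of all probes tested. All 404 probes with a fall of at least 0.45 showed nearly the same share, 65.3%, and the probes that rose mostly from E12 to E14 a higher one, 78.0%. That share was 56.1% in the probes that fell mostly from E10 to E12 and 70.7% in those that fell mostly from E14 to E17. By bands of 900 rows, members made up 2.22% and 2.00% of the tested probes in the first and second band and 0.334% in the last. In the last band the probes that fell mostly from E10 to E12 made up 1.56% of the tested probes. Those that fell mostly from E14 to E17 made up 1.78% there. No 2 members were in adjacent rows, and 12 had another member within 3 rows. In the other falling groups, 18 of 123 and 55 of 184 probes had another of their group within 3 rows. The layout of the slide and the content of the rows were not used here. Blank spots were few: 5 members had 1 each, which is 5.15% of members against 3.53% of all tested probes with a blank.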

How the data were processed

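Two-colour cDNA arrays measured 16 samples, 4 per age, against a common pool. The authors deposited 1 log ratio per spot and array, read here as log2; per the labels, the sample carried Cy3 and the pool Cy5, and 500 ng of RNA was amplified. Image analysis, background correction and normalization were not given in the sources used here. As deposited, arrays had means between -0.0065 and 0.0025, medians between -0.023 and 0.036, and SDs near 0.261. Members were found by the rule on age means, and 97 rows were left out for too few values. The members, lists and tests were chosen with earlier results of these data known. Lists of pituitary markers could not be used because the annotation names no member.

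Fits used limma 3.58.1 (lmFit and eBayes) in R 4.3.3 on all 7103 probes, with a mean per age, Benjamini-Hochberg adjustment over all probes and a threshold of 0.05, after testing on simulated data. Summaries used Python 3.11.15. The contrasts between steps were added after seeing the data. The number of arrays limits the precision. Replicates were separate pools, per the labels. For E12 and E14 same-numbered arrays deviated together (r of 0.148 to 0.437 over all probes), so the replicate block is given there; the labels do not say what a number marks, and for the other pairs of ages some correlations were under 0.1. Named members are those with the 4 largest E12 to E14 differences, the 2 next largest falls, the 2 highest and lowest shares of the fall in that step among members with a value on all 16 arrays, the 2 smallest and largest SDs, and the 2 nearest inside and outside the threshold. Alternatives were array medians, quantile normalization, array weights, a replicate block, no moderation, fits of 2 ages, the blank rows as a batch, other thresholds of the rule and leaving out arrays.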

Additional observations from a re-analysis of the deposited data

Results flagged for a closer look

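In 70 groups of 4 arrays (the named probes and the members' array medians at each age), 1 held a value that stood apart; by chance about 3.5 would (1 in 20). This was probe 585 at E14, at -0.857 on replicate 1 against -0.32 to -0.214 on the others.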

How the results depend on the processing

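The rule chose 177 probes with a lowest fall of 0.35 and 53 with 0.55, and 54 without the 4 blank-block arrays, which was chosen after seeing the data, as was the batch term. With age medians, 4 values at every age, drops per day, median centring or quantile normalization the number stayed within 1.5 times of 97. Of the 97 members, these settings kept 70, 92, 97, 88 and 77, in that order. Leaving out arrays gave 66 to 141, and leaving out replicate 3 at every age kept 51 of the 97. For E14 against E12 (5 members, 0.0985% of all probes), median centring gave 3 (0.0704%), quantile normalization 2 (0.0422%) and array weights 2 (0.0282%). The replicate block gave 8 (0.155%), the fit of these ages alone 0 (0%), and leaving out the blank-block arrays 0 (0%). With 1 array left out it was 1 to 6 (0.0141% to 0.239%). For E12 against E10 (1 member, 0.0985% of all probes), quantile normalization gave 0 (0.0141%), as did no moderation (0.0422%) and the fit of these ages alone (0.0704%). The batch term and leaving out its arrays also gave 0 (0.0141% and 0%). Single arrays left out gave 0 to 1 (0% to 0.155%). For E17 against E14 (0 members, 0.718% of all probes) single arrays left out gave 0 to 1 (0.253% to 1.00%). For E17 against E10 (90, 10.2% of all probes) they gave 81 to 92 (7.24% to 11.1%). For any age (80, 12.7%) they gave 68 to 83 (10.1% to 14.1%). Each other setting kept both counts within 1.5 times, though with array weights 16.4% and 20.7% of all probes passed. The replicate block moved no other count by that much. Median steps over the members moved by less than the spread between arrays in each setting: with 1 array left out the 3 steps were 0.12 to 0.18, 0.26 to 0.34 and 0.09 to 0.17, and without the 4 blank-block arrays 0.21, 0.24 and 0.15. The cause of these changes was not tested. Fits of 2 ages and those without arrays hold fewer samples. The main fit also gives each probe a single variance for all ages, although their spread differed. The members' median SD was lowest for E10 (0.102) and highest for E14 (0.199), with 0.161 for E12 and 0.148 for E17. Over all probes tested, the median SD was 0.113 for E10 and 0.186 for E14. How far this pooling moved the counts between E12 and E14 was not tested.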
